A study of Mus musculus with 2 samples.

Results

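The 9 chemokine receptor genes described here, Ccr9, Ccr7, Cxcr4, Ccr4, Ccr8, Ccr2, Ccr3, Cxcr3 and Cx3cr1, were taken by name from 21853 protein-coding genes, and all 9 were found in the annotation. DNase-seq, which maps DNA that the enzyme DNase I can reach in chromatin, was done on whole thymus of newborn B6NCrl mice (postnatal day 0, healthy, males and females pooled), in 2 biological replicates of 1 group. The replicates carry one donor label and separate biosample labels, so part of the spread between them may be technical. Each replicate has its own list of peaks, which are sites 150 bp wide, and of hotspots, which are wider regions of raised cutting. There is no second condition and n is 2, so no test was made, and counts are descriptions read against all protein-coding genes.

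Chemokine receptors are G protein-coupled receptors of the cell surface that steer migrating cells towards chemokines released by other cells. In the thymus, developing T cells (thymocytes) enter as progenitors, move outward through the cortex, and then pass into the medulla after positive selection, and they change receptors as they go. Ccr9 (the receptor of Ccl25), Ccr7 (of Ccl19 and Ccl21), Cxcr4 (of Cxcl12), Ccr4 (of Ccl17 and Ccl22) and Ccr8 (of Ccl1) are known for parts of this route and are called thymocyte homing receptors below. Ccr2 (of Ccl2, on monocytes), Ccr3 (of the eotaxins, on eosinophils), Cxcr3 (of Cxcl9 and Cxcl10, on effector T and NK cells) and Cx3cr1 (of Cx3cl1, on macrophages and NK cells) are better known from other leukocytes, and are called the other members.

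Peaks whose midpoint was at most 1000 bp from a coding transcription start are called promoter peaks of that gene. Farther peaks are called distal and belong to the gene whose coding start was nearest, up to 100 kb away. Shared peaks are those of replicate 1 that overlapped replicate 2 by 1 bp or more. The authors' deposited score is a whole number per peak, and is given here with its rank, the percentage of peaks in the same list with a lower score. In whole tissue, fewer cells of a type and less accessible chromatin per cell cannot be told apart.

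The sequences below carry the results that follow, as the strongest promoter and distal sites of the homing receptors, and the sites of the other members that share letters with them or contrast with them. Each is read from GRCm38 (RefSeq) on the plus strand, 5′ to 3′, and stretches annotated as untranslated were left off. Capitals mark matches on either strand to any of 11 short consensus sequences of factors active in blood cells, which are spelled out with their counts after the values.
Ccr9 promoter, chr9:123767096-123767210: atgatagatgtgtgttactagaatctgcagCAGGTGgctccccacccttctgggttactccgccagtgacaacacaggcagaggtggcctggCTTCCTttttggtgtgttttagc
Ccr9 strongest distal, chr9:123756876-123757025: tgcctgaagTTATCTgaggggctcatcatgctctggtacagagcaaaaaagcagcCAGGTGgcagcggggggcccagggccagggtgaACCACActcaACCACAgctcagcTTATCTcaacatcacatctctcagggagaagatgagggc
Ccr9 next distal, chr9:123754516-123754665: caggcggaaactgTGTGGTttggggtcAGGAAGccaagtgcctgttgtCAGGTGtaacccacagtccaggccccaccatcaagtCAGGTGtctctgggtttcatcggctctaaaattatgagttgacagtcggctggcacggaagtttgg
Ccr7 promoter, chr11:99155096-99155245: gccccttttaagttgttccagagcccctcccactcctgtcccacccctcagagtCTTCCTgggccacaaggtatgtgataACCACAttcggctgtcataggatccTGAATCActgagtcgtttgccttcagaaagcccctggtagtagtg
Ccr7 strongest distal, chr11:99136516-99136665: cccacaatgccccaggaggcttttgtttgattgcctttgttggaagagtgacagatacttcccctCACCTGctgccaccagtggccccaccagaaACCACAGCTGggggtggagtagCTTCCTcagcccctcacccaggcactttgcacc
Cxcr4 first intron, chr1:128591196-128591345: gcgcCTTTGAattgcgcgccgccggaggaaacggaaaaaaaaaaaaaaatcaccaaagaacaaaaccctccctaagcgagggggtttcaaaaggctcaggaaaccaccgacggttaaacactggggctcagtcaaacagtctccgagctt
Cxcr4 far downstream, chr1:128540336-128540485: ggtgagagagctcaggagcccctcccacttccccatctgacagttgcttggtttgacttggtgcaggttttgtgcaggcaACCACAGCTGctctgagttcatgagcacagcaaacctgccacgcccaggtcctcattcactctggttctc
Ccr4 promoter, chr9:114496563-114496685: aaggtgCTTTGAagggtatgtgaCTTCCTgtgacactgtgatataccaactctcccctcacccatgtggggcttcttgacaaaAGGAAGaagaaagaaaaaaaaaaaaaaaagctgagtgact
Ccr4 strongest distal, chr9:114498336-114498485: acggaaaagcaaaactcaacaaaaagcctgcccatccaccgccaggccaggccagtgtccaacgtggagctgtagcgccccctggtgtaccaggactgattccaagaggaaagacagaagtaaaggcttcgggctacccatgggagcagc
Ccr8 strongest distal, chr9:120098796-120098945: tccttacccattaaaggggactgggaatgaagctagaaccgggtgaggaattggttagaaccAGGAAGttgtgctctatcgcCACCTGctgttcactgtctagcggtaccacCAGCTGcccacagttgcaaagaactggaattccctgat
Ccr2 upstream distal, chr9:124100436-124100585: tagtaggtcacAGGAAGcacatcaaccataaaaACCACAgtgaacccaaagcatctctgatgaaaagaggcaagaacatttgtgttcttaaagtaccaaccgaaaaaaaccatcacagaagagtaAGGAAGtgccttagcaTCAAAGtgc
Ccr3 strongest distal, chr9:124039076-124039225: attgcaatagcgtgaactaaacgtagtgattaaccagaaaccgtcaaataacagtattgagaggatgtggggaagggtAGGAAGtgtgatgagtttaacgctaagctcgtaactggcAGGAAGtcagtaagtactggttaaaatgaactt
Cx3cr1 upstream distal, chr9:120078376-120078525: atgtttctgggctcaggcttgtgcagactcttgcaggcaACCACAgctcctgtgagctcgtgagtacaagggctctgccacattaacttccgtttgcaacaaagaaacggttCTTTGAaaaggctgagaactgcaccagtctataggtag

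Most of the 9 receptor genes had a promoter peak, weak at some of them, and the homing receptors held most of the distal sites. A promoter peak was present in both replicates at 8 of the 9 genes, where 62.2% of all protein-coding genes had one, and Ccr3 was the exception. The promoter peaks of the replicates overlapped at 7 of the 9 (61.7% of all genes), since those of Ccr8 lay apart. With only the stronger 50% of peaks, 5 of the 9 had a promoter peak in both replicates, near the 56.6% of all genes. Distal peaks of the 9 genes together numbered 109 in replicate 1 and 104 in replicate 2 (106.5 ± 3.54, SD, n = 2), of which 90 were shared. All 9 had at least 1 distal shared peak (65% of all genes), with a median of 7 per gene, against a median of 1 and a mean of 3.15 over all genes.

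For the 5 homing receptors, distal peaks numbered 91 in replicate 1 and 84 in replicate 2 (87.5 ± 4.95, SD, n = 2), and for the 4 other members 18 and 20 (19.0 ± 1.41, SD, n = 2). Per gene this was 17.5 ± 0.990 for the homing receptors and 4.75 ± 0.354 for the other members. That SD is over the 2 replicates and holds no variation between genes. Shared peaks per gene averaged 15 for the homing receptors (range 6 to 24) and 3.75 for the other members (range 1 to 7). The ranges overlapped, because Ccr2 with 7 exceeded Ccr8 with 6. The homing receptors also own more sequence, the stretch nearer to their starts than to any other coding start within 100 kb. Over 411.5 kb of it they had 18.2 shared peaks per 100 kb, against 6.66 over 225.1 kb for the other members and 4.30 over all genes. Single genes overlapped here too, since Cxcr4 had 12.8 per 100 kb and Ccr4 11.34, against 13.6 at Ccr2 and 11.41 at Cx3cr1.

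**Figure D1:**
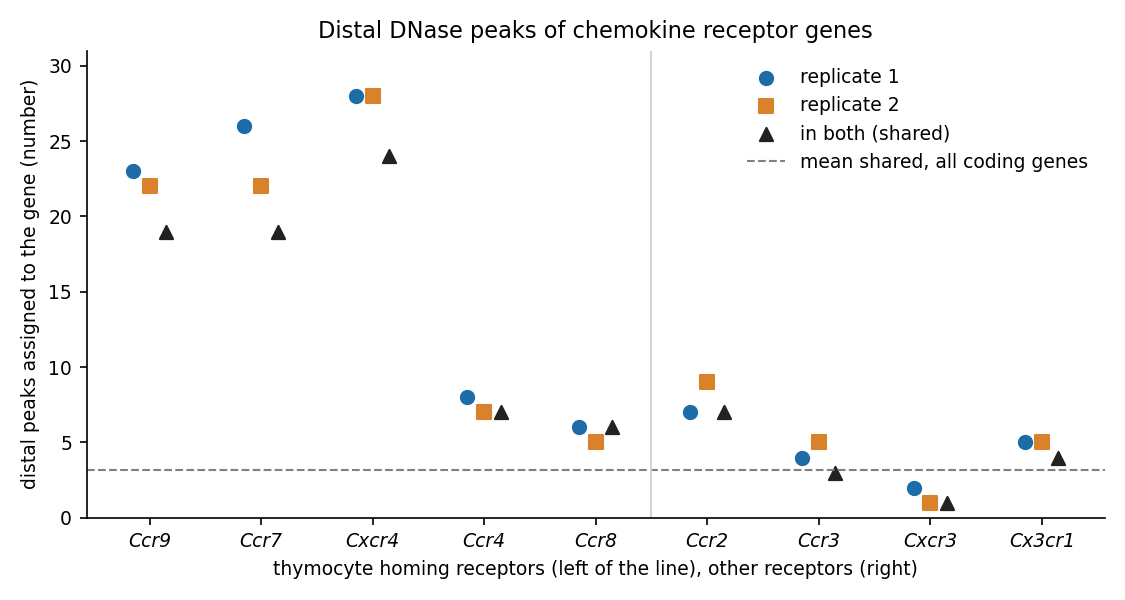
Number of distal peaks (vertical axis) assigned to each receptor gene in replicate 1 (circles), replicate 2 (squares) and shared (triangles), with homing receptors left of the grey line and the other members right of it. Cxcr4, Ccr9 and Ccr7 stand at 19 to 24 shared peaks and the other 6 genes at 1 to 7, where the dashed line marks the mean of all coding genes, 3.15.

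Ccr9, the Ccl25 receptor of progenitors and cortical thymocytes, occupies chr9:123678439-123784330 on the plus strand with 5 coding starts. At its main start, 123767211, the promoter peak scored 110 in replicate 1 (rank 93.0) and 96 in replicate 2 (rank 87.4). The gene's distal peaks numbered 23 in replicate 1 and 22 in replicate 2, of which 19 were shared, and 2.09% of all genes had at least as many. They lay densely, at 26.7 per 100 kb, and none was farther than 21.03 kb from a Ccr9 start. The 2 strongest were in the intron upstream of the main start, at 10.3 kb (scores 126 and 129, ranks 97.4 and 96.4) and at 12.6 kb (scores 123 and 129, ranks 96.6 and 96.4). Both ranked above the Ccr9 promoter itself in both replicates.

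The first annotated Ccr9 start lies far upstream, where the gene overlaps the 5′ end of Slc6a20a, an amino acid transporter gene on the opposite strand. Promoter peaks there were weak, with scores of 44 and 34 in replicate 1 and of 32 and 36 in replicate 2 for the shared ones, and they cannot be assigned to one gene or the other. The third strongest distal site of Ccr9 belongs to it only through that start. It is chr9:123665776-123665925, in a Slc6a20a intron, with scores of 105 and 85 (ranks 91.3 and 83.2). Leaving the first start out lowered the shared distal peaks of Ccr9 to 15. When starts of non-coding genes also competed, Ccr9 kept 5 of the 19, and 10 were nearest to the pseudogene Gm17020. The replicates differed beside the main start, where the hotspot was 3018 bp wide in replicate 1 and 596 bp in replicate 2. The −log10 q-value of both was at the deposited cap of 100.

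Ccr7, the receptor that draws positively selected thymocytes to the medulla, lies at chr11:99144196-99155077 on the minus strand with 1 start. Its single promoter peak, 94 bp upstream, was at the same position in both replicates and scored 119 (rank 95.5) and 112 (rank 92.1). Replicate 1 had 26 distal peaks for Ccr7 and replicate 2 had 22, with 19 shared, as many as for Ccr9. Unlike those of Ccr9, which fell in introns and exons, 21 of the 26 were intergenic, and 18 of the 26 lay downstream of the start. The strongest was 18.5 kb downstream, past the gene's end on the side of Tns4, with scores of 123 and 130 (ranks 96.6 and 96.6), above the promoter in both replicates. The next 2 lay 8.11 kb upstream (scores 104 and 105) and 15.97 kb upstream (scores 103 and 90). No peak of Ccr7 was farther than 34.4 kb away.

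Cxcr4, the Cxcl12 receptor of cells in the cortex and of many other blood cells, lies at chr1:128588199-128592293 on the minus strand. Its distal peaks numbered 28 in each replicate, with 24 shared, the most of the 9 genes, and 1.03% of all genes had at least as many. The nearest coding genes are distant, Dars at 170.8 kb and Thsd7b at 681.0 kb, so Cxcr4 owns 187.5 kb and its density was 12.8 per 100 kb, under that of Ccr9 and Ccr7. With starts of non-coding genes included, 15 of the 24 stayed with Cxcr4. Peaks were spread widely, 14 upstream and 14 downstream in replicate 1, with 8 beyond 50 kb and the farthest at 85.6 kb. The start was covered by a hotspot of 2953 bp in replicate 1 and 2916 bp in replicate 2. Within it, the peak at the start scored 113 and 122 (ranks 93.9 and 94.6).

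The highest Cxcr4 score belonged to a first-intron peak that straddles the promoter limit. It lay 1.019 kb from the start in replicate 1 (score 121, rank 96.1) and 0.999 kb in replicate 2 (score 130, rank 96.6), so the same site counted as distal in 1 list and as promoter in the other. The strongest remote site was 51.9 kb downstream in intergenic DNA, with scores of 111 and 99 (ranks 93.3 and 88.4). Another lay 10.9 kb upstream, with scores of 99 and 104.

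Ccr4, a receptor of thymocytes entering the medulla, lies at chr9:114490316-114504916 on the minus strand. Its promoter peak, 49 bp upstream of the main start and at the same position in both replicates, scored 98 (rank 88.6) and 95 (rank 87.1). Its distal peaks were 8 in replicate 1 and 7 in replicate 2, all 7 of these shared, and 14.5% of all genes had at least 7. The strongest, 1.85 kb upstream of a start and in a Ccr4 intron, scored 98 and 93 and so equalled the promoter score in replicate 1. The next, with scores of 93 and 99, lay 43.4 kb away in an intron of Glb1, a lysosomal galactosidase gene, which held 3 of the 7. One more, with scores of 82 and 95, fell in an exon of Trim71 on the other side.

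Ccr8, the Ccl1 receptor of medullary thymocytes and regulatory T cells, differed from the other homing receptors at its start. It lies at chr9:120092114-120094906 on the plus strand. Replicate 1 had 1 promoter peak at 503 bp upstream (score 30, rank 22.7) and replicate 2 had 1 at 83 bp upstream (score 27, rank 25.4), and they did not overlap. The hotspots there were narrow and weak, 53 bp (−log10 q 1.33) and 319 bp (−log10 q 3.06). Its distal sites were nonetheless shared, with 6 in replicate 1 and 5 in replicate 2, all overlapping, and 18% of all genes had at least 6. Of the 6, 2 overlapped the same peak of replicate 2, and 4 remained when an overlap of 50% of both peaks was required. Ccr8 owns only 20.2 kb, so 6 peaks came to 29.6 per 100 kb. The strongest lay 6.76 kb downstream (scores 80 and 64) and 7.46 kb upstream (scores 74 and 67), none reaching rank 80, and the next was 9.22 kb upstream (scores 50 and 44). With starts of non-coding genes included, 3 of the 6 stayed with Ccr8.

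**Figure D2:**
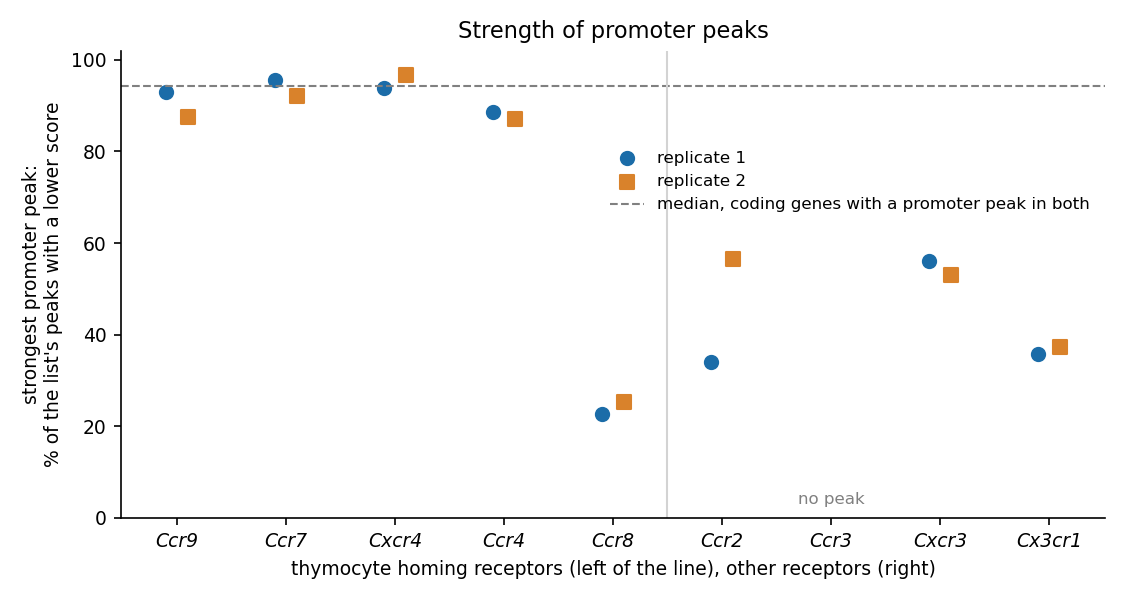
Rank of the strongest promoter peak of each gene, as the percentage of the list's peaks with a lower score (vertical axis, 0 to 100), in replicate 1 (circles) and replicate 2 (squares), with homing receptors left of the grey line. Ccr9, Ccr7, Cxcr4 and Ccr4 stand above 85 in both, Ccr8 and the other members stand below 60, Ccr3 has no peak, and the dashed line is the median of all genes with a promoter peak in both (94.2 in replicate 1). At Cxcr4 and Ccr8 the points of the replicates are different sites. For Cxcr4 these are the peak at the start in replicate 1 and the first-intron peak in replicate 2.

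The groups also differed at their promoters. The strongest promoter peak ranked 85 or higher in both replicates at 4 of 5 homing receptors and at 0 of 4 other members, where 44.1% of all genes did. Among the other members the ranks ran from 34.0 to 56.1 in replicate 1 and from 37.2 to 56.5 in replicate 2. Genes with a promoter peak in both replicates had a median rank of 94.2 and 94.3. Ccr7 (95.5 and 92.1) and Cxcr4 (93.9 and 96.6, at different sites) were near that level. Ccr9 (93.0 and 87.4) and Ccr4 (88.6 and 87.1) were somewhat under it, and the other receptors with a promoter peak far under it. CpGs within 500 bp were counted at the start of each gene that had the most. The 9 members had a median of 15, against 48 over all genes, although Ccr9 had 77 and Cxcr4 had 43. At Ccr9 the main-start promoter peak held 2 CpGs, and a weak promoter peak at the first start, beside Slc6a20a, held 16. The 77 therefore need not describe the main start. Ccr7 had 12 CpGs, fewer than most genes (20.5% of all genes had fewer), and one of the higher promoter ranks.

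Ccr2, the Ccl2 receptor of monocytes, lies at chr9:124101950-124113557 on the plus strand. Its only shared promoter peak sat 999 bp upstream, just inside the limit, with scores of 36 (rank 34.0) and 47 (rank 56.5), and replicate 2 had another of score 20. Distal peaks numbered 7 and 9, with 7 shared, the most of the other members. The strongest by mean rank, 21.96 kb upstream, scored 74 and 61. A second site, 1.44 kb upstream, scored 68 and 64, above the promoter peak in both replicates, and another, 33.4 kb upstream, scored 59 and 53. No Ccr2 peak reached rank 75.

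Ccr3, the eotaxin receptor of eosinophils, had neither a promoter peak nor a hotspot within 1000 bp of its start at chr9:124021972. Replicate 1 had 4 distal peaks for it and replicate 2 had 5, with 3 shared (36.8% of all genes had at least 3). All of them lay downstream of the start, and the strongest, at 17.2 kb, scored 56 and 39. The other shared ones, at 11.6 and 35.8 kb, scored 42 and 35 in replicate 1 and 28 and 23 in replicate 2. At 4.86 per 100 kb, Ccr3 was close to the 4.30 of all genes.

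Cxcr3, the Cxcl9 and Cxcl10 receptor, had the fewest distal peaks. It lies at chrX:101731535-101734269 on the minus strand, and its promoter peak, 118 bp into the gene, scored 52 (rank 56.1) and 44 (rank 53.1). Of 2 distal peaks in replicate 1 and 1 in replicate 2, 1 was shared, with scores of 35 and 29 at 5.82 kb downstream. Its density of 1.31 per 100 kb was the lowest of the 9 genes and under that of all genes. Cxcr3 was also the member whose peaks held the most repeated sequence, a median of 5% of their 31-base words against 0% at each of the other 8, and its promoter and distal values rest on 5 peaks in all.

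Cx3cr1, the fractalkine receptor, lies at chr9:119901616-120069879 on the minus strand. Its promoter peak, 35 bp upstream of a start, scored 37 (rank 35.8) and 33 (rank 37.2). It had 5 distal peaks in each replicate and 4 of them were shared (28.5% of all genes had at least 4). The strongest was intronic, 13.3 kb downstream of a start, with scores of 69 and 83, and was the only peak among the other members to pass rank 75, in replicate 2 alone. The next 2 were upstream, at 8.57 kb (scores 68 and 61) and 3.49 kb (scores 59 and 57).

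**Figure D3:**
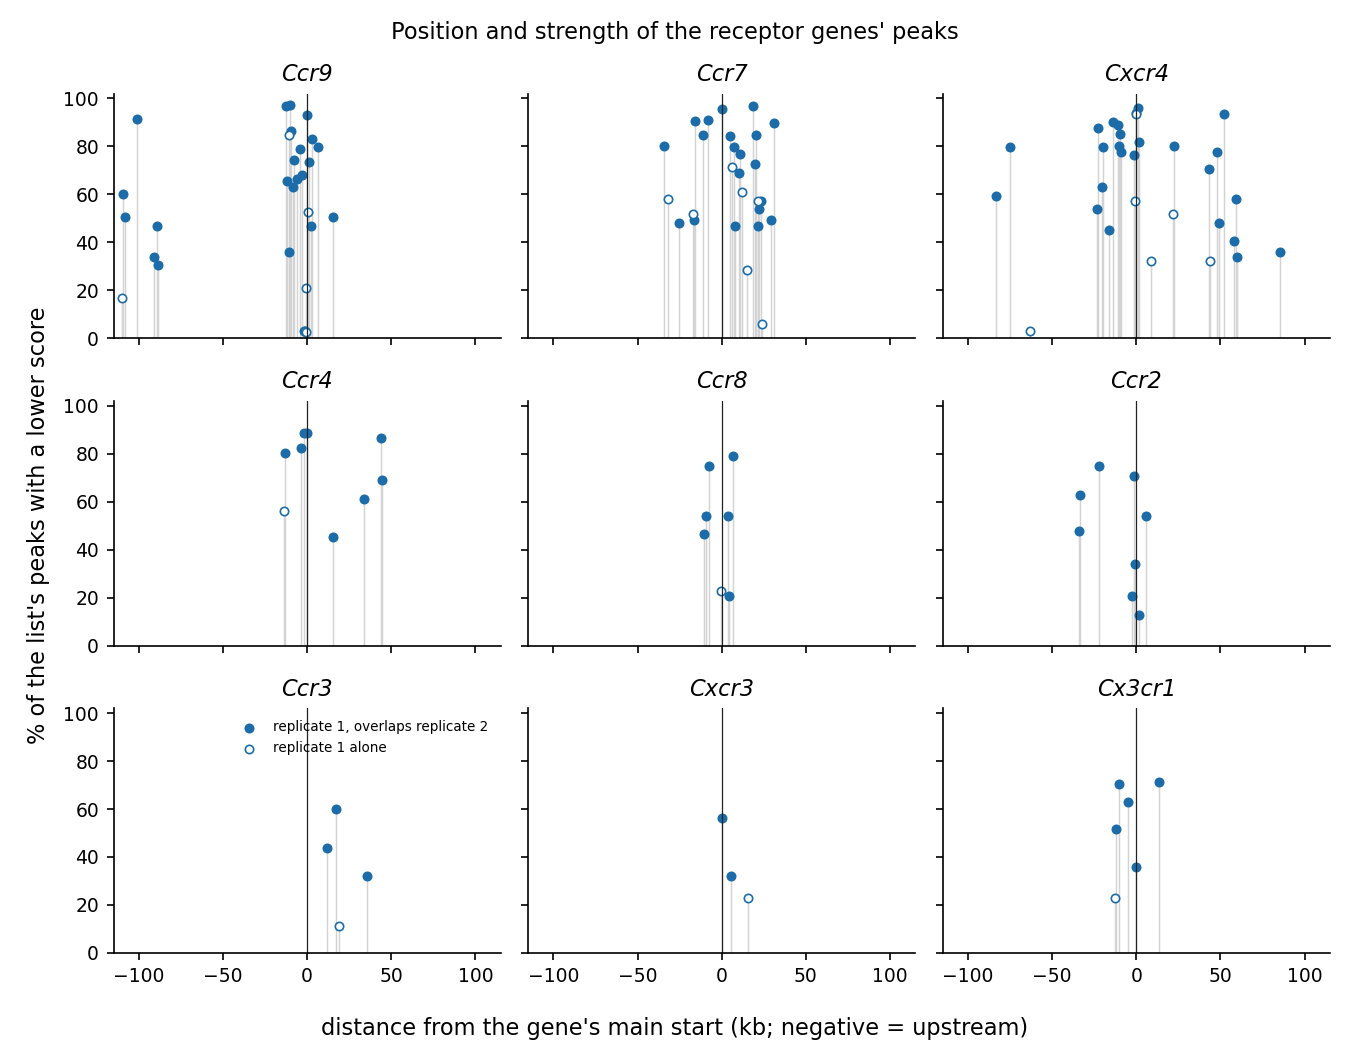
Position of each replicate 1 peak relative to the gene's main start (horizontal axis, kb, negative upstream) and its rank (vertical axis, % of the list's peaks with a lower score), with filled points overlapping a replicate 2 peak and open points found in replicate 1 alone. Ccr9 peaks form 1 group around the main start and another around its far upstream first start (distal ones at -90.7 to -109.8 kb in replicate 1), Ccr7 peaks stay within 34.4 kb, those of Cxcr4 reach 85.6 kb, and Ccr3 peaks lie on the downstream side alone.

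Pooled over genes, the distal peaks of the homing receptors ranked higher than those of the other members. Their median rank was 68.1 in replicate 1 and 66.1 in replicate 2, against 49.7 and 32.6 for the other members and 46.6 and 45.3 for all distal peaks. Gene by gene the groups overlapped, since the median rank was 66.5 and 64.8 at Ccr9 and 53.9 and 53.1 at Ccr8, against 62.9 and 65.7 at Cx3cr1. Rank 90 or higher was reached by 9 of 91 in replicate 1 (5.05% of all distal peaks) and by 5 of 84 in replicate 2 (3.73% of all distal peaks), and by none of the other members' 18 and 20 peaks. Rank 75 or higher was reached by 40.7% and 39.3% of the homing receptors' peaks, against 20.3% and 18.8% of all distal peaks. The share of distal peaks that overlapped the other replicate was 82.4% of replicate 1 and 86.9% of replicate 2 for the homing receptors. It was 83.3% and 75% for the other members, and 67.5% and 74% for all distal peaks.

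Distal peaks found in 1 replicate alone had lower median scores than the shared ones of the same gene. For Ccr9 the median score of shared distal peaks was 65 in replicate 1 and 60 in replicate 2, and of unshared ones 22 and 28. For Cxcr4 the shared medians were 78 and 67 and the unshared 35 and 35, and for Ccr7 they were 77 and 69 against 53 and 39. The unshared median of 53 at Ccr7 was above the 46 of all peaks in replicate 1. Strong unshared peaks in replicate 1 included a Ccr9 distal peak (score 90, rank 84.7) and a Cxcr4 promoter peak (score 112, rank 93.6). Hotspots at the cap of 100 were 12 of 22 for Ccr9 in replicate 1 and 11 of 22 in replicate 2, 3 of 6 in each for Cx3cr1, and 0 of 4 and 1 of 5 for Ccr3. Over all hotspots 45.9% and 43.5% were at the cap, so Ccr9 and Cx3cr1 were near that share.

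The homing receptors were next set against the chromosome 9 receptor cluster, described here from Ccr9 through Cxcr6, Xcr1, Ccr1, Ccr1l1 and Ccr3 to Ccr2. Ccr4, Ccr8 and Cx3cr1 lie elsewhere on chromosome 9, and Ccrl2 at chr9:111054486-111057519 is also outside the cluster. From 20 kb upstream of the main Ccr9 start to the end of Ccr9, 37.1 kb, replicate 1 had 22 peaks and replicate 2 had 18, promoter peaks included, and 16 were shared, or 43.1 per 100 kb. From the end of Ccr9 to the end of Ccr2, 329.2 kb, there were 54 and 53 peaks and 44 shared, or 13.4 per 100 kb. The main chromosomes as a whole held 3.81 shared peaks per 100 kb. Ccr2 and Ccr3 lie in the sparser stretch, with 8.58 per 100 kb from Ccr1 to Ccr2, against 17.4 between Ccr9 and Ccr1. The denser stretch also holds Fyco1, which is not a receptor gene, with 7 promoter peaks in replicate 1 and 4 in replicate 2. The shared ones of these, and its 3 shared distal peaks, are counted in the 17.4 and the 13.4. The span at Ccr9 was set around that gene, while the longer one averages dense and sparse parts. Over the sequence each gene owns, Ccr1 had 30.9 shared distal peaks per 100 kb and Ccr9 had 26.7.

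Gene by gene, Ccr9 with 19 shared distal peaks was matched in the cluster by Ccr1, a receptor of monocytes and neutrophils, with 18. Ccr1 had 20 distal peaks in each replicate, 30.9 shared per 100 kb, and no promoter peak in either. All 20 lay downstream and in intergenic DNA, 8.34 to 45.4 kb from the Ccr1 start in replicate 1, on the side of Xcr1 and Ccr9. The strongest by mean rank, chr9:123929036-123929185, scored 122 and 118 (ranks 96.4 and 93.6), near the level of the Ccr9 intronic sites. In each replicate, 6 of the 20 overlapped another peak of the same list, so some Ccr1 sites were counted more than once. None of the 9 members' distal peaks did so, where 6.73% of all peaks in replicate 1 and 9.28% in replicate 2 did. Leaving out peaks written with a decimal point lowered the shared count of Ccr1 to 14, while Ccr9 stayed at 19. Nearest start is the sole basis for giving these peaks to Ccr1, and which gene they act on was not tested.

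The remaining cluster genes were closer to Ccr2 and Ccr3. Cxcr6, the Cxcl16 receptor, had 4 shared distal peaks and a promoter peak of score 86 and 63, above that of Ccr2. Xcr1, a dendritic cell receptor, had 1, and Ccr1l1 had 2. Without Ccr9 these 6 cluster genes had a median of 3.5 shared distal peaks, and 2 of the 6 had a promoter peak in both replicates (62.2% of all genes).

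**Figure D4:**
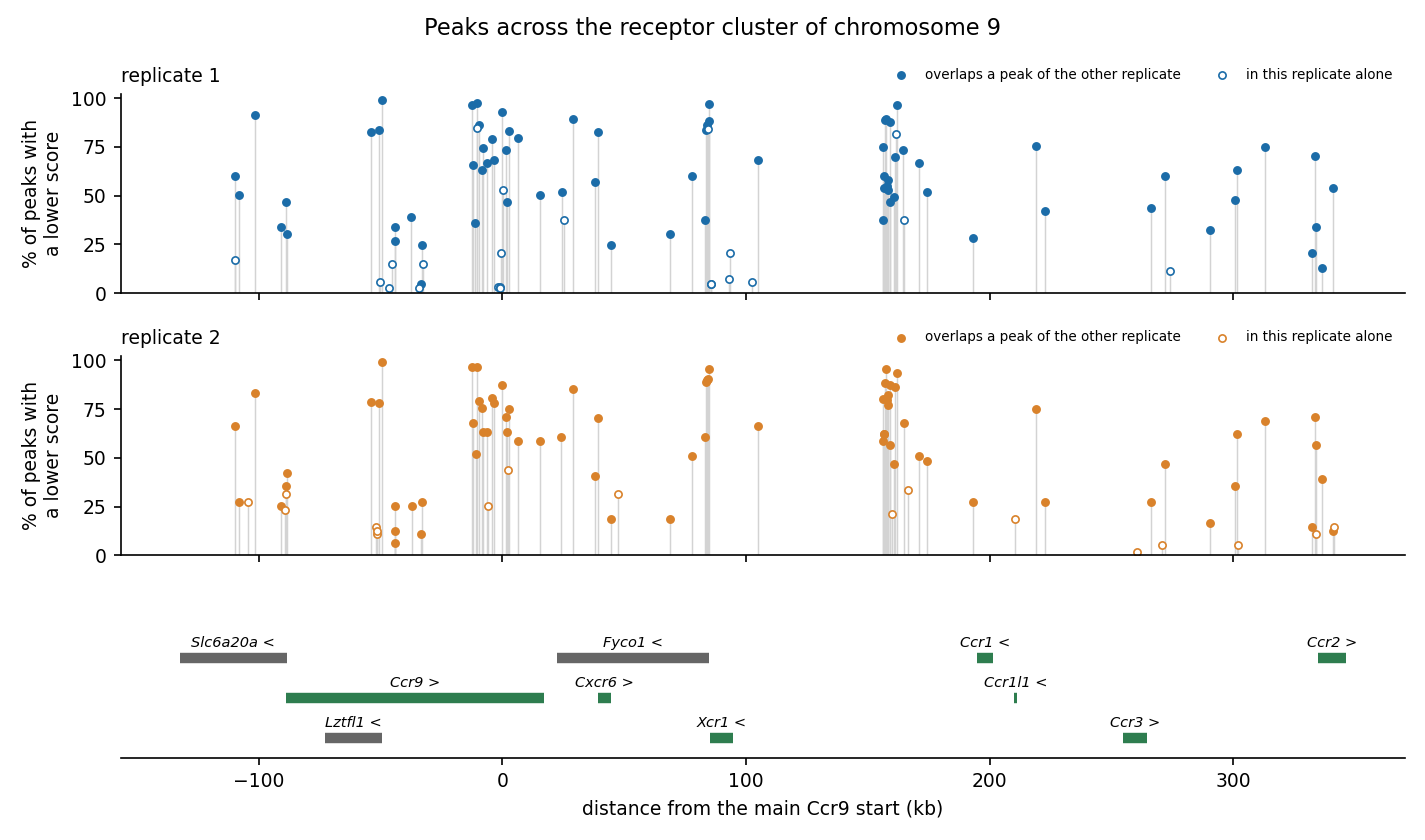
Peaks across the chromosome 9 receptor cluster, by distance from the main Ccr9 start (horizontal axis, kb) and rank (vertical axis, % of peaks in the list with a lower score), for replicate 1 above and replicate 2 below it, with filled points shared and open points in 1 replicate alone. Bars show genes with their strand (receptors green, others grey), and dense groups of peaks lie at Ccr9 and in the gap between Xcr1 and Ccr1, where the 18 shared peaks nearest to Ccr1 stand.

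The shared distal peaks of the 9 genes were searched for consensus letters on both strands, and set beside all 68872 distal shared peaks and beside flanking windows 1000 bp away. Letters of RUNX factors (TGTGGT) were found in 24 of 90 peaks, or 26.7%, against 21% of all distal shared peaks and 11.8% of flanks. Those of ETS factors, AGGAAG, were in 32 peaks (35.6%, against 31.2%). Of the E-boxes searched, letters read by E proteins, CAGCTG was in 19 peaks (21.1%, against 15.9%), and CACCTG was in 17 (18.9%, against 21.9%). Letters of TCF/LEF factors, CTTTGA, were in 20 peaks (22.2%, against 13.2%). The CTCF consensus, which is CCA, AG and GGC with 2 free bases in each gap, was in 4 peaks (4.44%, against 16.8%), 1 each at Ccr9, Ccr7, Ccr4 and Ccr8. For the remaining sequences the counts were small. GATA letters (AGATAA) were in 7 peaks, against 6.15% of all distal shared peaks, and AP-1 letters (TGANTCA) were in 5, against 5.49%. KLF letters (GGGTGTG) were in 4 peaks, against 4.5%, and FOXO letters (GTAAACA) were in 1, against 2.07%. The NF-kB consensus, GGG and TTTCC with 2 free bases between, was in 1 peak, against 0.77%. Of 9 shared promoter peaks of the members, 3 held the RUNX letters (7.63% of all shared promoter peaks) and 4 the ETS letters (20.4%). Base composition was not matched there, and the members had a median of 15 CpGs near their starts, against 48 over all genes. The 9 also include those at the first Ccr9 start, which cannot be assigned to Ccr9 or Slc6a20a. A match describes the letters and does not show that a factor binds.

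Within the 9 genes, Ccr9 had RUNX letters in 7 of 19 peaks and CAGCTG in 6, Ccr7 had RUNX and CACCTG in 6 of 19 each, and Cxcr4 had CAGCTG in 6 of 24 and RUNX in 4. The homing receptors had ETS letters in 22 of 75 peaks (29.3%), and the other members in 10 of 15 (66.7%), with 5 of those 10 at Ccr2. In the strongest Ccr9 site, printed above, there are 2 RUNX, 2 GATA and 1 CACCTG match. The strongest Ccr4 site holds none of the 11.

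In the strongest Ccr7 distal site and the far downstream Cxcr4 site the RUNX and CAGCTG letters overlap, as ACCACAGCTG. These letters were searched for after the sequences had been seen. They occur in 4 of the 90 members' peaks (4.44%), which belong to Cxcr4, Ccr7 and Ccr9, with 2 of them at Ccr7. Among the 4 are the 2 printed sites in which the letters had been seen. That choice raises the share, which is no independent count. Of all distal shared peaks, 220 of 68872 (0.319%) hold the letters, as do 0.0872% of the flanking windows. The Cxcr4 site also shares a run of 17 letters, tgcaggcaaccacagct, with the Cx3cr1 upstream site printed above. The run was found by comparing the members' peaks with each other, and no background share was computed. Sequence masked as repeats makes up 36% of the Cxcr4 site and 14% of the Cx3cr1 site. Whether the run comes from a repeat was not tested.

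Thymocyte markers fit the tissue label, and most thymic epithelial markers had no promoter peak. A promoter peak in both replicates, which 62.2% of all genes had, was present at 9 of 9 thymocyte genes, 1 of 5 thymic epithelial genes (Epcam, and not Foxn1, Psmb11, Krt5 or Krt8), 3 of 5 myeloid genes, 0 of 4 eosinophil and mast cell genes, 2 of 3 NK cell genes, 1 of 3 B cell genes and 2 of 3 endothelial genes. The eosinophil count of 0 stands beside the Ccr3 promoter without a peak, and its part in that result was not tested. The myeloid, NK cell and endothelial counts were near the share of all genes. Replicate 1 had 154812 peaks and replicate 2 had 139702, with median scores of 46 and 41, and 67.3% and 74.8% of them overlapped the other list. The sources used here give no sequencing depth, so a gene without a peak is not shown to be closed.

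Beyond the 9 members, 14 further chemokine and atypical chemokine receptor genes had 56 shared distal peaks. Their median was 2, against 1 over all genes, and 4 of the 14 had a promoter peak in both replicates (62.2% of all genes). Ccr1 led with 18 (2.45% of all genes had at least as many). Cxcr5, the Cxcl13 receptor of follicular cells, followed with 12 (6.04% of all genes) and a promoter peak in replicate 1 alone. Cxcr2 and Ackr3 had no shared distal peak, where 65% of all genes had at least 1. Of 17 chemokine ligand genes in the annotation, 3 had a promoter peak in both replicates (62.2% of all genes). Their median was 1 shared distal peak, the same as over all genes. Ccl25, the Ccr9 ligand made by thymic epithelium, had the highest promoter peak score of the 17, with 134 and 131. It has 3 coding starts, and at which of them the peak lies, or whether another gene starts there, was not examined. Cxcl10 followed with 101 and 90, and Cxcl9 had 33 and 24. Ccl19 and Ccl21a, the Ccr7 ligands, had no peak of either kind, and Ccl21a has near-identical copies among which reads may not be placed.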

How the data were processed

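The study holds DNase-seq peak and hotspot lists of 2 replicates of newborn mouse thymus on mm10, made per replicate, per the text deposited with the files. For the aligner, peak caller, thresholds and depth, the sources used here give nothing. Each peak carries the authors' deposited score, a whole number from 1 to 150 whose meaning is not stated, used only for ranking within its list. Each hotspot carries a −log10 q-value as deposited by the authors, with a cap of 100.

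Members and lists were chosen with earlier results of these data known. Named genes are the 9 members, the receptor and ligand lists, neighbours and host genes of peaks, and named peaks are the strongest promoter peak and 3 strongest shared distal peaks of each member. Peaks were assigned to 54361 coding starts of GENCODE M21 with Python 3.11.15, numpy 2.4.6 and pandas 2.3.3, and sequence was read with pysam 0.24.0. Assignment and overlap code was tested on simulated data. Alternatives changed the overlap, the score threshold, the promoter window, the distance limit, the start sites and the kind of region. Leaving out the first Ccr9 start, leaving out peaks written with a decimal point, and requiring overlapping promoter peaks were chosen after seeing the data.

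All 9 members were kept, 1 other receptor gene is not reported here, and no minimum score was applied. Repeated sequence was measured as the share of 31-base words of a peak found elsewhere in the genome.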

Additional observations from a re-analysis of the deposited data

How the results depend on the processing

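Of 40 recomputed summary counts, 37 stayed within 1.5 times the main count and 3 moved. With only the stronger 50% of peaks, 5 of the 9 receptors had a promoter peak in both replicates (56.6% of all genes), and the other members had 7 shared distal peaks, Ccr3 and Cxcr3 none. With start sites of all biotypes competing, the homing receptors had 48 shared distal peaks, of which Ccr9 had 5, Cxcr4 15 and Ccr8 3, since most of the lost ones lie nearer to a start of a pseudogene or other non-coding transcript. In each alternative run with both replicates the homing receptors had more shared distal peaks per gene than the other members. Their means ran from 9.6 (against 3.75) to 15 (against 3.75). With 1 replicate alone no peak can be shared, and all its distal peaks were counted. The means were then 18.2 (against 4.5) in replicate 1 and 16.8 (against 5) in replicate 2. In all alternatives but the promoter window of 2500 bp, at least 1 other member reached or passed the lowest homing receptor.

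Using 1 replicate alone, 8 receptors had a promoter peak in either case, and distal peaks ranged from 104 to 109 over the 9 genes, from 84 to 91 for the homing receptors and from 18 to 20 for the other members. No paired analysis was possible because there is 1 group. For single genes, 121 recomputed counts stayed within that limit and 19 moved, among them Ccr2 with 4 at a promoter window of 2500 bp. Depth is unknown, so weak sites, such as those at Ccr8, Ccr3 and Cxcr3, may be missed in either list.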
